A study of Mus musculus with 12 samples.

Results

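The 8 genes described here make, supply or use arginine for nitric oxide and its neighbouring pathways: Nos2, Ass1, Asl, Slc7a1, Slc7a2, Gch1, Arg2 and Odc1. They were taken by symbol from a count table of 27179 mouse genes, and all 8 had a row. Nos2 was selected on measured values: an earlier analysis of the same counts had shown it as the largest decrease when dTAG-13 was added to doxycycline-treated cells. The values in that comparison, and the interaction that contains it, are therefore given as a description without a test. Which values, if any, bore on the choice of the other 7 genes is not recorded, and they are listed here by their function.

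The RNA came from MC38-idAdpgkG cells. These are the mouse colon carcinoma line MC38, of the C57BL/6 strain, carrying a construct that overexpresses Adpgk(R304M) joined to turboGFP, induced by doxycycline and degradable. The degrader dTAG-13 recruits the cereblon ubiquitin ligase to proteins that carry a matching tag. All 4 groups received mouse interferon-gamma at 20 ng/mL, the controls included, so no group shows the genes without this cytokine. The control group had interferon-gamma alone for 51 h, and the doxycycline group also had doxycycline at 1 µg/mL for those 51 h. The dTAG-13 group had interferon-gamma for 48 h and then dTAG-13 at 1 µM for 3 h. The doxycycline plus dTAG-13 group had interferon-gamma and doxycycline for 48 h before the same 3 h with dTAG-13. Each group held 3 libraries, which the labels call technical replicates of 1 biological sample of 1 engineered line. The p-values below therefore measure the spread between libraries of a single culture and say nothing of other cultures. With 1 culture per group, a difference with a compound cannot be told apart from a difference between the cultures.

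Nitric oxide synthases turn arginine into nitric oxide and citrulline. Nos2 encodes the inducible enzyme, which in mouse cells is known as a target of interferon-gamma together with NF-kappaB signals. Cells take up arginine through the cationic amino acid transporters (Slc7a1, Slc7a2) or rebuild it from citrulline through Ass1 and then Asl. Arginases (Arg2 in mitochondria) split arginine to ornithine, which Odc1 turns into putrescine, the first polyamine. Gch1 catalyses the first step towards tetrahydrobiopterin, a cofactor that all nitric oxide synthases need.

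The start regions of 3 of these genes are shown because they lie at the ends of the expression range found below: Ass1, for which no read was counted, and Slc7a1 and Odc1, the most highly expressed members. The sequences are RefSeq's for GRCm38.p6 (mm10), from 250 bases before to 50 after a transcript start, on the gene's strand. Promoter entries were given for 4 of the 8 members, the fourth being Gch1. Capitals mark, on either strand, the E-box (CACGTG), which 7.15% of 32851 mouse promoters hold, and the GC box (GGGCGG), in 35.7%. They also mark the CCAAT box (CCAAT), in 37.4%, the TATA box (TATAAA), in 13.6%, and a gamma-activated site (TTCNNNGAA), in 8.30%. None of these motifs overlapped another here.
Ass1, chr2:31470020-31470319, + strand: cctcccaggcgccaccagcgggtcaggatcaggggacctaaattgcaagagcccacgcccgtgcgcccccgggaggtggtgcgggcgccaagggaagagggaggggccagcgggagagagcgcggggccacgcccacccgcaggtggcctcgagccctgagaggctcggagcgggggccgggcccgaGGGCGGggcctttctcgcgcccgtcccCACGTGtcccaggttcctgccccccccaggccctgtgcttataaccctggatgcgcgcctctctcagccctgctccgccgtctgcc
Slc7a1, chr5:148399855-148400154, - strand: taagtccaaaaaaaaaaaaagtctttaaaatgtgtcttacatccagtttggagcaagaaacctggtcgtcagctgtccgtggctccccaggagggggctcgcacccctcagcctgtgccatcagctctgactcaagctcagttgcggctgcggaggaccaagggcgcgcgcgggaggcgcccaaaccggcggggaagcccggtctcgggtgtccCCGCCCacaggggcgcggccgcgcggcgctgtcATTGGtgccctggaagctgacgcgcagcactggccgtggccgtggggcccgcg
Odc1, chr12:17544623-17544922, + strand: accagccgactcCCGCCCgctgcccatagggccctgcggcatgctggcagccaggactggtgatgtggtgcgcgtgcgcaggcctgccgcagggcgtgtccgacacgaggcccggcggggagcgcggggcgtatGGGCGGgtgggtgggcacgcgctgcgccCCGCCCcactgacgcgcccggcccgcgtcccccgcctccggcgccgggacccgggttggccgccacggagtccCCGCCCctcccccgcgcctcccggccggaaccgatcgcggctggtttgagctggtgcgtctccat
The Ass1 window held 1 E-box and 1 GC box, the Slc7a1 window 1 GC box and 1 CCAAT box, and the Odc1 window 4 GC boxes. RefSeq gives a second Slc7a1 start, whose window held 1 TATA box and 1 gamma-activated site. CG dinucleotides numbered 27 for Ass1, 27 for Slc7a1 and 42 for Odc1, against a median of 7 over all promoters. The Odc1 window had more of them than 97.0% of promoters. These are matches of letters, not binding sites, and the counts of RNA do not test them.

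The libraries held 22165538 to 32809573 counted reads, and 15373 to 15970 genes had at least 1 read in a library. Levels are in CPM, normalised read counts scaled to library size. Adpgk, the gene carried by the construct, was at 161 ± 2.49 CPM (SD, n = 3) in controls and 1338 ± 20.1 in doxycycline (8.34-fold higher). It stood at 181 ± 4.18 with dTAG-13 and 1369 ± 15.7 with doxycycline plus dTAG-13. Reads were counted per gene, so the cell's own Adpgk and the construct are not separated. Levels of RNA do not show the degradation of the protein. Although the labels give colon carcinoma, 0 of 8 epithelial markers reached 1 CPM in any group, and Epcam and Cdx2 had no read in any library. In RNA from whole cultures, fewer cells that express a gene and less RNA per cell cannot be told apart.

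Compared per kilobase of exon, the 8 genes differed widely in level. Over the 12 libraries the mean level was 253 CPM per kb for Odc1, 37.3 for Slc7a1, 6.04 for Asl and 2.37 for Nos2. Below these came Arg2 at 0.0591, Gch1 at 0.0522 and Slc7a2 at 0.00118 CPM per kb, with Ass1 at 0. No library broke the order of Odc1, Slc7a1, Asl and Nos2, while the points of Arg2 and Gch1 overlapped. Asl and Nos2 came closest in the doxycycline group, at 5.54 and 4.74 CPM per kb. Among these 4, Nos2 alone had group means that differed by more than 2-fold, which follows from its choice by a large decrease between 2 of the groups.

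**Figure D1:**
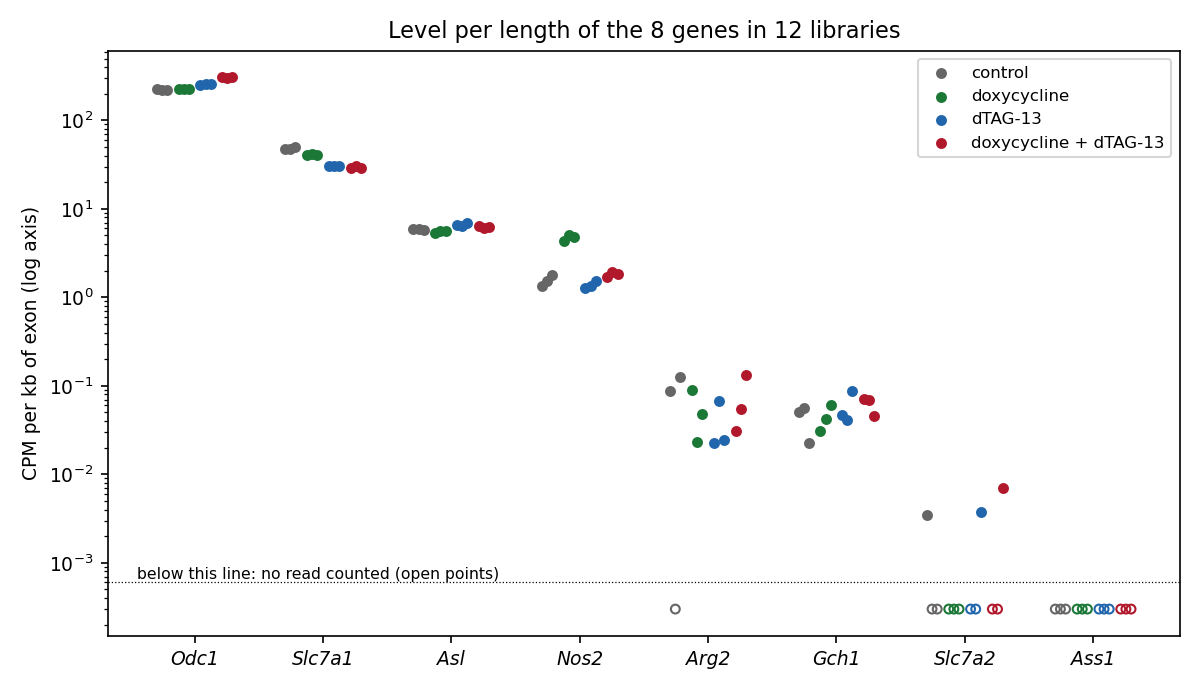
Level of each gene in each of the 12 libraries, in CPM per kb of exon on a log axis, coloured by group; open points under the dotted line are libraries with no read. Odc1, Slc7a1, Asl and Nos2 keep this order in every group, Arg2 and Gch1 share a lower range, and Ass1 has open points only.

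Nos2 RNA was present in every library and was high in 1 group, doxycycline without dTAG-13. The gene (Entrez 18126) lies at chr11:78920787-78960226 in GRCm38.p6, with 4412 exon bases and no overlapping RefSeq gene. The control libraries held 5.90, 6.73 and 7.84 CPM of Nos2 and the doxycycline libraries 19.3, 22.2 and 21.3. With dTAG-13 the libraries held 5.56, 5.92 and 6.72 CPM, and with doxycycline plus dTAG-13 they held 7.58, 8.61 and 8.01. All 3 doxycycline libraries thus lay above the 9 others, which ranged from 5.56 to 8.61 CPM. The control values overlapped those of both groups with dTAG-13, whereas the 2 groups with dTAG-13 did not overlap each other.

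**Figure D2:**
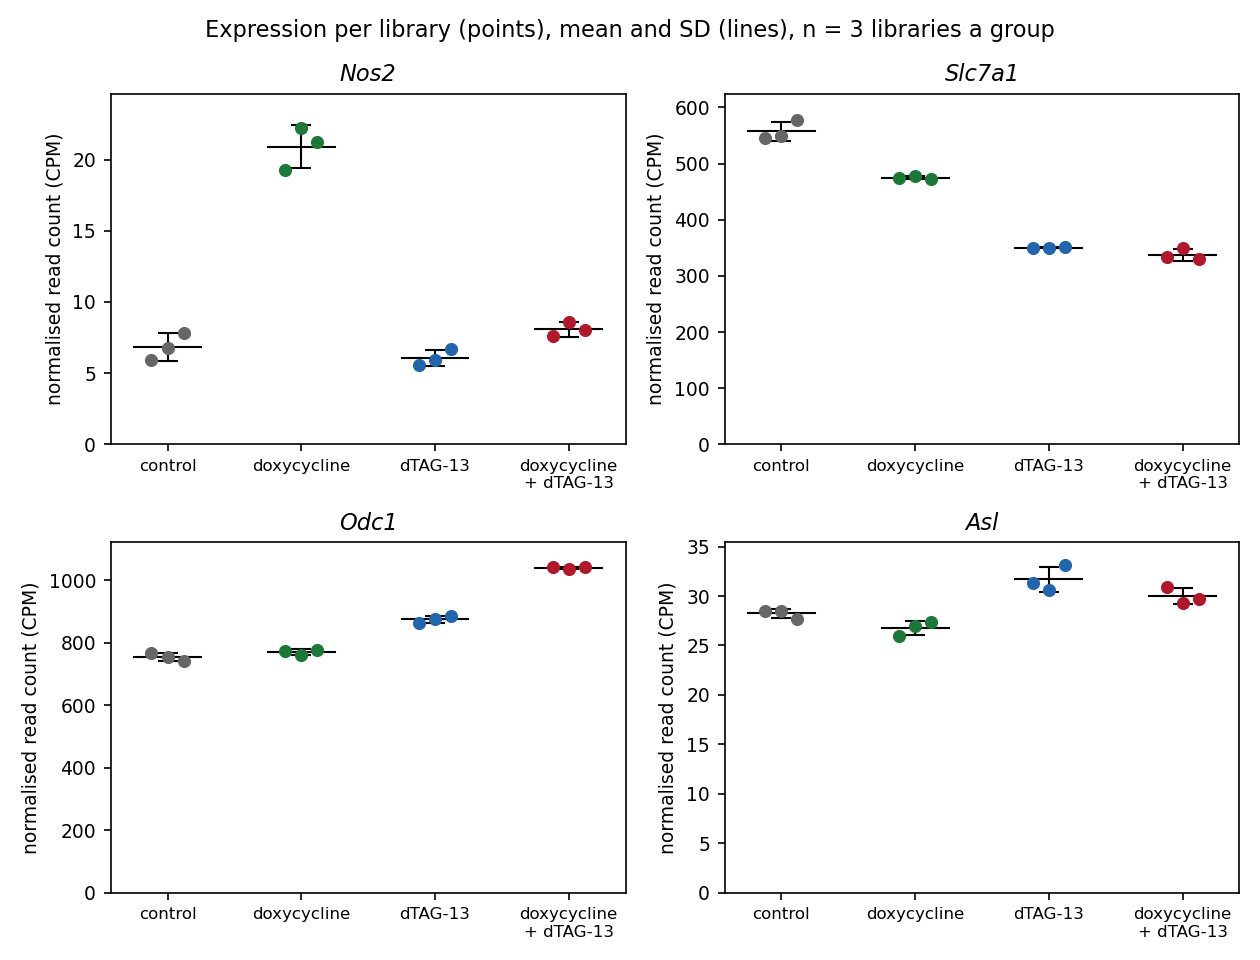
Normalised read count (CPM) of Nos2, Slc7a1, Odc1 and Asl in each library (points) with the group mean and SD (lines, n = 3 libraries). Nos2 is high in the doxycycline group alone, Slc7a1 is lower in both groups with dTAG-13, and Odc1 is highest with doxycycline plus dTAG-13.

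In means, Nos2 rose from 6.82 ± 0.975 CPM (SD, n = 3) in controls to 20.9 ± 1.49 with doxycycline, a 3.08-fold difference. On the log2 scale the difference was 1.62 (SE 0.0882, edgeR adjusted p = 2.1e-18), and it ran from 1.52 to 1.72 over all alternative settings. This comparison shares the doxycycline libraries with the one in which Nos2 was already known to stand out, so its p is not independent of the choice. Among dTAG-13-treated cells, Nos2 was 1.33-fold higher with doxycycline (8.06 ± 0.516 CPM) than without (6.07 ± 0.592). On the log2 scale this was 0.42 (SE 0.104, edgeR adjusted p = 0.00307), with 0.36 to 0.49 over the alternatives. It shares the doxycycline plus dTAG-13 libraries with the comparison known at the choice.

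Markers of other cell types were read beside Nos2, which macrophages can express strongly. Of 9 macrophage markers 2 (Cd68 and Cd14) reached 1 CPM on average over the 12 libraries, none was at 0 in every library, and the defining Ptprc and Adgre1 were near 0. Their summed level was 7.97 to 8.53 CPM in controls and 7.51 to 9.20 in doxycycline, which overlapped, and 9.71 to 10.97 and 10.47 to 11.04 in dTAG-13 and doxycycline plus dTAG-13. Most of this sum was Cd14, with means of 6.32, 6.31, 7.61 and 7.88 CPM in the same order of groups. Of 5 lymphocyte markers 4 had no read. Of 4 endothelial markers 1 (Pecam1) reached 1 CPM on average, and the 4 summed to between 1.92 and 4.18 CPM over all libraries. Of 5 fibroblast markers 4 (Col3a1, Pdgfra, Pdgfrb and Dcn) reached 1 CPM on average. The summed level of the 5 was 1163 to 1186 CPM in controls, 1417 to 1461 in doxycycline, 1096 to 1127 in dTAG-13 and 1178 to 1205 in doxycycline plus dTAG-13. Most of that sum was Col3a1, and the markers did not all go the same way. With doxycycline against control Col3a1, Pdgfra and Pdgfrb rose, by 0.38, 0.27 and 0.68 on the log2 scale, while Dcn fell by 0.20 (edgeR adjusted p = 2.66e-18, 7.49e-11, 4.97e-07 and 2.19e-05). Col1a1 was near 0 in every group. The part of these genes in the Nos2 result was not tested.

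The comparison of dTAG-13 with control uses no library of the one that singled out Nos2. In it, Nos2 differed by -0.17 on the log2 scale (SE 0.105, 95% interval -0.38 to 0.05, edgeR adjusted p = 0.169) and was not called. The interval leaves room for a difference of up to 0.38 on the log2 scale. Without control replicate 1, the lowest control library, the value was -0.27 with an edgeR adjusted p of 0.0364, so the absence of a call rests on that library.

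The comparison of doxycycline plus dTAG-13 with doxycycline is the one used in the choice of Nos2. There Nos2 was 2.59-fold lower, or -1.37 on the log2 scale (SE 0.0880), and no library of the 2 groups overlapped. The interaction, which subtracts the dTAG-13 difference without doxycycline from that with it, was -1.21 (SE 0.138) on the log2 scale. The doxycycline plus dTAG-13 libraries, at 7.58 to 8.61 CPM, overlapped the control range of 5.90 to 7.84.

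Among the other members, Slc7a1 fell and Odc1 and Asl rose with dTAG-13. Of the 8 genes, 5 had enough reads to be fitted (Nos2, Asl, Slc7a1, Odc1 and Gch1). In dTAG-13 against control, 3 of those 5 were called, while 62.1% of all 12910 tested genes were called, 30.0% higher and 32.1% lower. In doxycycline against control, 2 were called (Nos2 higher, Slc7a1 lower), against 33.5% of all genes, 14.8% higher and 18.7% lower. In doxycycline plus dTAG-13 against dTAG-13, 2 were called (Nos2 and Odc1, both higher), against 20.4% of all genes, 10.7% higher and 9.64% lower. Nos2 is counted in both of these comparisons with doxycycline. Each shares libraries with the comparison used in its choice, so these Nos2 calls are not independent of that choice. Calls stand for a Benjamini-Hochberg adjusted p under 0.05 over all tested genes, and with 5 genes these shares cannot be set apart from the background. In doxycycline plus dTAG-13 against doxycycline, 64.1% of all genes passed that threshold, 30.7% higher and 33.4% lower, and no member is counted there.

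**Figure D3:**
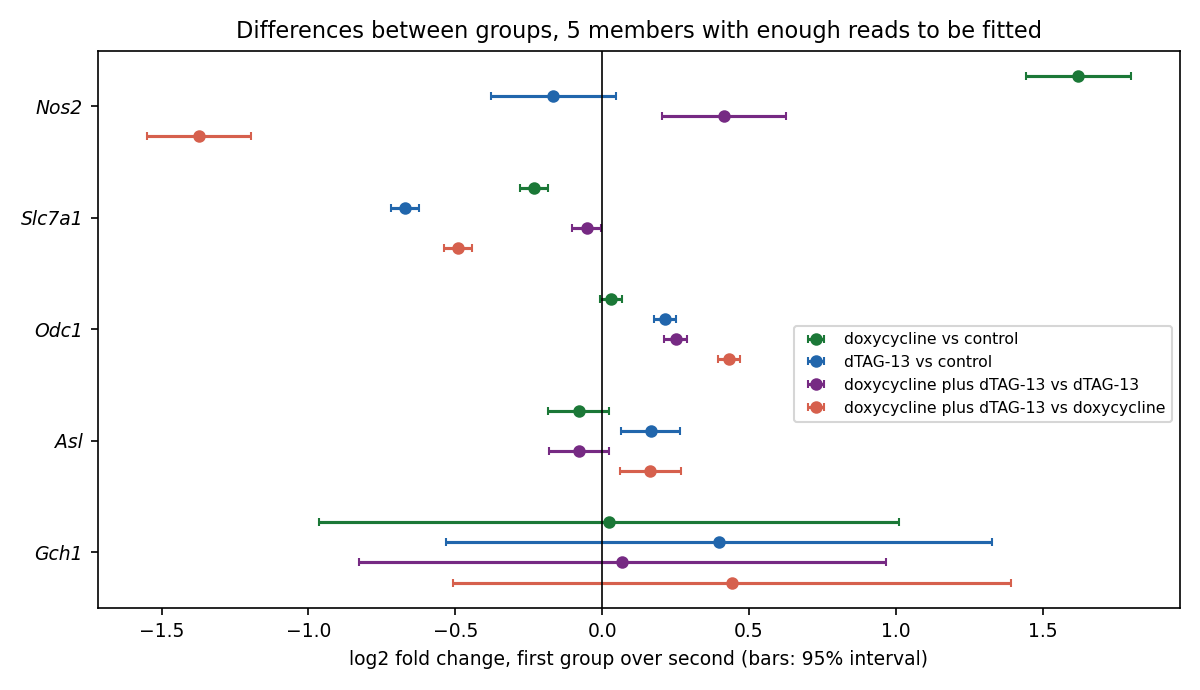
Log2 fold change of the 5 fitted genes in 4 comparisons (points) with 95% intervals (bars); doxycycline plus dTAG-13 against doxycycline is shown as a description because it was used in choosing Nos2. Nos2 spans from -1.37 to 1.62, while Gch1 has the widest intervals of the 5 genes.

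Slc7a1 encodes CAT-1, the arginine transporter found in most cell types, and was the more abundant of the 2 transporters of the set. The gene (Entrez 11987) lies at chr5:148327410-148399904 with 11530 exon bases. Control libraries held 546, 549 and 577 CPM and doxycycline libraries 474, 478 and 473. With dTAG-13 the values were 349, 350 and 351 CPM, and with doxycycline plus dTAG-13 they were 333, 350 and 330. The groups therefore stood in the order control, doxycycline and then both dTAG-13 groups, which overlapped each other. The fall with dTAG-13 was -0.67 on the log2 scale (SE 0.0234, edgeR adjusted p = 9.15e-26), 1.59-fold. With doxycycline alone it was -0.23 (SE 0.0232, edgeR adjusted p = 1.32e-10). Between the 2 groups with dTAG-13, the log2 fold change was -0.05 (95% interval -0.10 to -0.01, edgeR adjusted p = 0.114), not called, although it was called with total count scaling (-0.09) or without doxycycline plus dTAG-13 replicate 2 (-0.08). As a description, Slc7a1 was also lower in doxycycline plus dTAG-13 than in doxycycline, by -0.49 (SE 0.0236).

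Slc7a1 has a long exon sequence, taken over all transcripts of the gene, and this length moved with the dTAG-13 comparison across the genome. Over 11745 genes the rank correlation of the dTAG-13 log2 fold change with exon length was -0.37, a description across genes that are not independent replicates. Genes with at least 9234 exon bases, the longest eighth and Slc7a1 among them, had a median of -0.23, against 0.02 for all tested genes. With a correction for length and GC content the fall of Slc7a1 was -0.37 and was still called. In doxycycline plus dTAG-13 against doxycycline the same correction moved it from -0.49 to -0.12. The part of length in these values was not tested further.

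Slc7a2, which encodes CAT-2, the transporter that rises together with Nos2 in activated macrophages, was barely seen. The gene (Entrez 11988) lies at chr8:40862341-40922070. Its 4 reads came from 3 libraries, with 1 read in a control library, 2 in a doxycycline plus dTAG-13 library, 1 in a dTAG-13 library and 0 in doxycycline. No fold change is given, since every group was at or under the 3 reads that a count of 0 allows.

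Ass1, argininosuccinate synthase, joins citrulline and aspartate in the rate-limiting step of arginine resynthesis. The gene (Entrez 11898) lies at chr2:31470270-31520670, and no read was counted for it in any of the 12 libraries, among 351698267 reads in all. That count allows up to 0.0941 to 0.134 CPM in a single library and up to 0.00854 CPM over all of them, for counting error only. Expression of Ass1 was not detectable at this depth in any group, including the doxycycline group in which Nos2 was highest.

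Asl, argininosuccinate lyase, releases arginine in the next step and was expressed at a steady level. The gene (Entrez 109900) lies at chr5:130011258-130024381. Control libraries held 28.5, 28.5 and 27.7 CPM and doxycycline libraries 26.0, 26.9 and 27.3. With dTAG-13 the values were 31.4, 30.6 and 33.1 CPM, and with doxycycline plus dTAG-13 they were 30.9, 29.3 and 29.7. All 6 libraries with dTAG-13 lay above the 6 without it, by a small margin. Asl rose by 0.17 on the log2 scale with dTAG-13 against control (SE 0.0499, edgeR adjusted p = 0.00413), with 0.26 under total count scaling and 0.30 under the length and GC correction. With doxycycline against control the log2 fold change was -0.08 (95% interval -0.18 to 0.02, edgeR adjusted p = 0.245), and among dTAG-13-treated cells it was -0.08 (95% interval -0.18 to 0.02, edgeR adjusted p = 0.288). Neither was called. In the described comparison of doxycycline plus dTAG-13 with doxycycline it was 0.16 (SE 0.0516).

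Arg2, the mitochondrial arginase, had 30 reads in 11 of the 12 libraries and was too low to be fitted. The gene (Entrez 11847) lies at chr12:79130788-79156301 and overlaps Vti1b and Gm40462, so that its few reads cannot be assigned with certainty. The controls had 4, 0 and 5 reads, doxycycline 4, 1 and 2, dTAG-13 1, 3 and 1, and doxycycline plus dTAG-13 1, 2 and 6. Every group overlapped every other.

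Odc1, ornithine decarboxylase, was the most highly expressed member per length and was highest with the 2 compounds together. The gene (Entrez 18263) lies at chr12:17544808-17551502 and overlaps the small nucleolar RNA gene Gm22748. Control libraries held 767, 756 and 742 CPM and doxycycline libraries 774, 761 and 778. With dTAG-13 the values were 865, 875 and 885 CPM, and with doxycycline plus dTAG-13 they were 1043, 1036 and 1042. Controls and doxycycline overlapped, dTAG-13 lay above both, and doxycycline plus dTAG-13 lay above all other libraries. Odc1 rose by 0.21 on the log2 scale with dTAG-13 against control (SE 0.0191, edgeR adjusted p = 7.53e-13) and by 0.25 with doxycycline among dTAG-13-treated cells (SE 0.0190, edgeR adjusted p = 1.1e-13). With doxycycline alone the value was 0.03 (95% interval -0.01 to 0.07, edgeR adjusted p = 0.23), not called, although total count scaling called it at 0.07 (edgeR adjusted p = 0.00726). As a description, doxycycline plus dTAG-13 exceeded doxycycline by 0.43 (SE 0.0191), and the interaction was 0.22 (SE 0.0269).

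Nos2 and Odc1 thus differed in their order over the groups. Nos2 was highest with doxycycline and had its lowest mean with dTAG-13, while Odc1 was highest with both compounds together and at about equal levels in controls and doxycycline. Both were higher with doxycycline than without among the dTAG-13-treated cells, Nos2 by 0.42 and Odc1 by 0.25 on the log2 scale.

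Gch1, GTP cyclohydrolase, was close to the limit of detection. The gene (Entrez 14528) lies at chr14:47153895-47189413 and overlaps the pseudogene Gm18811. The controls had 10, 11 and 4 reads, doxycycline 6, 8 and 11, dTAG-13 9, 8 and 16, and doxycycline plus dTAG-13 10, 11 and 9, which makes 113 reads in all. No group stood apart. The log2 fold changes were 0.40 with dTAG-13 (95% interval -0.53 to 1.33), 0.02 with doxycycline (-0.97 to 1.01) and 0.07 with doxycycline among dTAG-13-treated cells (-0.83 to 0.97). With edgeR adjusted p of 0.469, 0.978 and 0.94 none was called, and the intervals leave room for differences of up to 1.33 on the log2 scale.

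The other genes around these 8 were followed as lists by function, made with earlier results of these counts known: 50 genes, of which 39 could be fitted. In dTAG-13 against control 13 of the 39 rose, 6 fell and 20 were not called, with a median log2 fold change of 0.08, where 30.0% of all tested genes were called higher and 32.1% lower. In doxycycline against control 6 rose, 12 fell and 21 were not called, with a median of -0.07, where 14.8% and 18.7% of all genes were called. In doxycycline plus dTAG-13 against dTAG-13, 3 of the 39 rose and 2 fell, where 10.7% and 9.64% of all genes were called. Beside these stand medians of 0.02, -0.01 and -0.001 over all tested genes. The balance of calls moved with the scaling: under total count scaling 21 rose and 3 fell with dTAG-13, 7 rose and 9 fell with doxycycline, and 1 rose and 3 fell in the third comparison. That scaling moved the median log2 fold change of all tested genes too, by 0.092, 0.036 and -0.035 in the same order. Under the length and GC correction 8 rose and 10 fell with dTAG-13. Here and below, the shares of all genes called under such alternative settings are not given, so these counts have no background beside them.

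**Figure D4:**
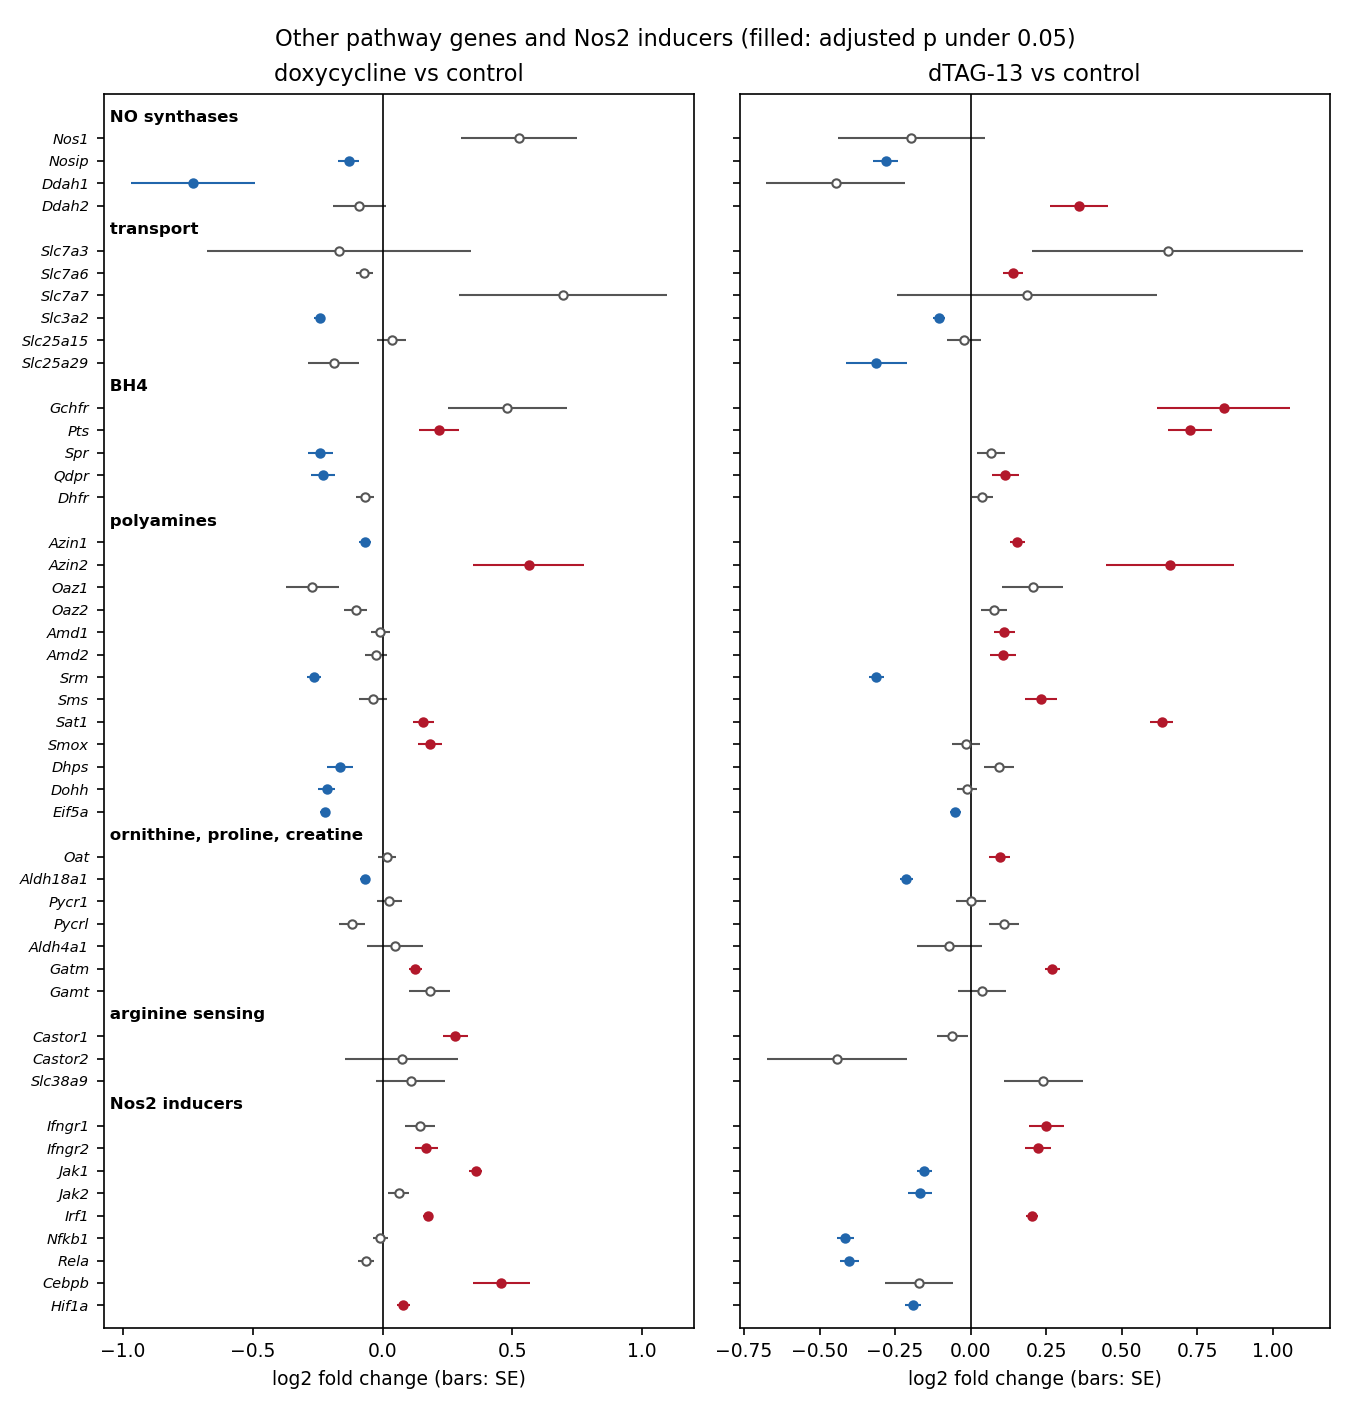
Log2 fold change (points) with SE (bars) of the reported other pathway genes and Nos2 inducers in doxycycline against control and dTAG-13 against control; filled red and blue points are called higher and lower, open points are not called. The tetrahydrobiopterin genes Gchfr and Pts and the polyamine genes Sat1 and Azin2 lie farthest to the right of the called genes with dTAG-13.

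Of the cofactor genes besides Gch1, 5 were fitted, and 3 of them rose with dTAG-13, where 30.0% of all genes were called higher. All 5 rose under total count scaling, which moved the median of all tested genes by 0.092, and 2 under the length and GC correction or with DESeq2. With doxycycline 1 rose and 2 fell, where 14.8% of all genes were called higher and 18.7% lower. Under the length and GC correction none rose and 3 fell with doxycycline. Pts, the second enzyme of tetrahydrobiopterin synthesis, went from 11.4, 11.7 and 11.0 CPM in controls to 17.7, 20.7 and 17.9 with dTAG-13, or by 0.73 on the log2 scale (SE 0.0737, edgeR adjusted p = 2.59e-11). Gchfr, a regulator of the Gch1 enzyme, went from a mean of 1.14 to 2.03 CPM, by 0.84 (SE 0.220, edgeR adjusted p = 0.0011). With doxycycline Qdpr, which recycles the cofactor, fell by 0.23 and Spr, sepiapterin reductase, by 0.24 on the log2 scale (edgeR adjusted p = 0.000118 and 0.000146). Pts rose by 0.22 with doxycycline (edgeR adjusted p = 0.0282), a call lost with DESeq2 (0.21), with the length and GC correction (0.16) and without control replicate 1 or 3 (0.21 and 0.19) or doxycycline replicate 1 or 3 (0.22 and 0.20).

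Of 4 other genes of nitric oxide synthesis and its control that were fitted, none was a second abundant synthase. Nos1, the neuronal synthase, had means of 1.71 CPM in controls and 2.46 in doxycycline (edgeR adjusted p = 0.0696), and Nos3 had 10 reads in all. Ddah2, of the dimethylarginine dimethylaminohydrolase family, rose by 0.36 with dTAG-13 (SE 0.0968, edgeR adjusted p = 0.00147). Its relative Ddah1 fell by 0.73 with doxycycline (SE 0.239, edgeR adjusted p = 0.015), from 69, 52 and 61 reads in controls to 38, 39 and 31. That call was lost without control replicate 1 (-0.67) or without doxycycline replicate 3 (-0.66). Nosip, a synthase-interacting protein, fell by 0.28 with dTAG-13 (edgeR adjusted p = 1.31e-07) and by 0.13 with doxycycline (edgeR adjusted p = 0.0104). The doxycycline call was lost with total count scaling (-0.10) and when control replicate 2 (-0.12) or doxycycline replicate 1 or 3 (-0.11 and -0.12) was left out.

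Among the 6 other transporter genes, Slc3a2, the heavy chain partner of several amino acid transporters, had the highest level. Its means were 594 ± 4.24 CPM in controls, 502 ± 3.22 in doxycycline, 553 ± 4.50 in dTAG-13 and 570 ± 14.8 in doxycycline plus dTAG-13 (SD, n = 3). It fell by 0.24 with doxycycline (edgeR adjusted p = 2.02e-12) and by 0.10 with dTAG-13 (edgeR adjusted p = 3.7e-05). The latter was lost with total count scaling (-0.01). Slc7a6, a partner of Slc3a2 that exchanges arginine for neutral amino acids, rose by 0.14 with dTAG-13 (edgeR adjusted p = 0.000391), with 0.23 under total count scaling. Slc25a29, a mitochondrial carrier of basic amino acids, fell by 0.31 with dTAG-13 (edgeR adjusted p = 0.00692), a call lost with total count scaling (-0.22) or without dTAG-13 replicate 3 (-0.25).

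In the urea cycle and arginine breakdown list none of the 5 other genes passed the filter on low counts of the edgeR fit. Arg1, the cytosolic arginase, had 6 reads over 12 libraries and Otc, ornithine transcarbamylase, had 1. Cps1 and Agmat had 10 and 1, and Nags had none. With Ass1 at 0 and Arg2 at 30 reads, Asl was the only gene of that list above the filter.

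Of the 13 fitted polyamine genes besides Odc1, 6 rose and 2 fell with dTAG-13, and 3 rose and 5 fell with doxycycline. Of all genes, 30.0% and 32.1% were called higher and lower with dTAG-13, and 14.8% and 18.7% with doxycycline. The split with dTAG-13 was 10 higher and 1 lower under total count scaling, and 3 higher and 4 lower under the length and GC correction. Sat1, the acetyltransferase that marks polyamines for export and breakdown, went from 52.5, 50.7 and 50.7 CPM in controls to 80.2, 77.6 and 80.9 with dTAG-13. On the log2 scale it rose by 0.63 (SE 0.0386, edgeR adjusted p = 8.85e-18), or 0.39 with the length and GC correction. Srm, spermidine synthase, fell in both comparisons, by 0.31 with dTAG-13 (edgeR adjusted p = 5.37e-14) and by 0.27 with doxycycline (edgeR adjusted p = 4e-11). Azin2, an antizyme inhibitor, rose by 0.66 with dTAG-13 and by 0.56 with doxycycline (edgeR adjusted p = 0.00651 and 0.0385), from a mean of 1.27 CPM in controls. Both calls were lost without control replicate 3 (0.45 and 0.35), and the second also with DESeq2 and without doxycycline replicate 3 (0.42).

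Eif5a, the translation factor that carries the polyamine-derived residue hypusine, fell by 0.22 with doxycycline (edgeR adjusted p = 2.76e-12), while the dTAG-13 value of -0.05 (edgeR adjusted p = 0.0235) changed sign with total count scaling (0.04) and lost its call without control replicate 1 (-0.04) or dTAG-13 replicate 3 (-0.05). Smox, spermine oxidase, rose by 0.18 with doxycycline (edgeR adjusted p = 0.00168). Among dTAG-13-treated cells, doxycycline was accompanied by a fall of Azin1, an inhibitor of the antizyme that degrades the Odc1 protein, by 0.13 (edgeR adjusted p = 8.72e-05). Sat1 rose there by 0.11 (edgeR adjusted p = 0.0385), a call that was lost with total count scaling (0.07), with DESeq2 (0.11), with the length and GC correction (0.09) and without doxycycline plus dTAG-13 replicate 1 or 3 (0.09 and 0.09) or dTAG-13 replicate 1, 2 or 3 (0.11, 0.09 and 0.12).

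In the branches from arginine to proline and creatine, 8 genes were fitted. Gatm, the first enzyme of creatine synthesis, which takes its amidino group from arginine, rose by 0.27 with dTAG-13 (edgeR adjusted p = 1.52e-12) and by 0.13 with doxycycline (edgeR adjusted p = 9.82e-05). With the length and GC correction its dTAG-13 value was 0.03 and not called. Aldh18a1, which starts proline and ornithine synthesis from glutamate, fell by 0.21 with dTAG-13 (edgeR adjusted p = 9.2e-12), by 0.12 under total count scaling, and by 0.10 with doxycycline among dTAG-13-treated cells (edgeR adjusted p = 0.000299). Its fall of 0.07 with doxycycline alone (edgeR adjusted p = 0.00916) was lost with total count scaling (-0.03), with no filter (-0.06) and when control replicate 2 (-0.06) or doxycycline replicate 2 (-0.05) was left out.

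Pycrl, a proline synthesis enzyme, rose by 0.16 with doxycycline among dTAG-13-treated cells (edgeR adjusted p = 0.0148), a call lost with total count scaling (0.13), with the length and GC correction (0.10) and without doxycycline plus dTAG-13 replicate 1 (0.15) or dTAG-13 replicate 2 (0.14). Oat, ornithine aminotransferase, rose by 0.10 with dTAG-13 (edgeR adjusted p = 0.0135), but had -0.08 with the length and GC correction and lost its call without control replicate 3 (0.08) or dTAG-13 replicate 2 or 3 (0.08 and 0.09). Of the 3 genes of arginine sensing, Castor1, which encodes an arginine sensor of the mTORC1 pathway, rose by 0.28 with doxycycline (edgeR adjusted p = 1.41e-05) and by 0.21 with doxycycline among dTAG-13-treated cells (edgeR adjusted p = 0.00218).

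The last list held 10 known inducers of Nos2 transcription, namely the chains of the interferon-gamma receptor, its kinases and the transcription factors, and all 10 were fitted. With doxycycline against control 6 of the 10 rose and none fell, with 14.8% of all genes called higher and 18.7% lower. The median was 0.16, against -0.01 for all genes, while 5 rose and 1 fell under the length and GC correction. With dTAG-13 against control 3 rose and 5 fell, with 30.0% and 32.1% of all genes called in those directions. The median was -0.16, and 4 rose and 4 fell under total count scaling or the length and GC correction. In doxycycline plus dTAG-13 against dTAG-13 3 rose and none fell, against 10.7% and 9.64% of all genes, with a median of 0.05, but 1 rose and 3 fell under total count scaling. In the described comparison of doxycycline plus dTAG-13 with doxycycline, 8 of the 10 had negative and 2 positive log2 fold changes. Their median was -0.29, against 0.003 for all genes, of which 33.4% passed the threshold lower and 30.7% higher. That comparison was the one used in the choice of Nos2.

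Jak1, a kinase of the receptor, rose by 0.36 with doxycycline (edgeR adjusted p = 1.53e-15), and by 0.08 among dTAG-13-treated cells (edgeR adjusted p = 0.0172), the latter lost with total count scaling (0.05) or without dTAG-13 replicate 1 (0.07). Cebpb, a transcription factor with sites in the Nos2 promoter, rose by 0.46 with doxycycline (SE 0.110, edgeR adjusted p = 0.0124), from 187 ± 18.7 to 257 ± 20.3 CPM (SD, n = 3).

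The NF-kappaB genes had lower values with dTAG-13. Nfkb1 was at 161, 161 and 158 CPM in controls and 116, 120 and 124 with dTAG-13, or -0.42 on the log2 scale (SE 0.0285, edgeR adjusted p = 3.27e-16), or -0.23 with the length and GC correction. Rela fell by 0.40 (SE 0.0302, edgeR adjusted p = 5.58e-15). Both receptor chains rose with dTAG-13, Ifngr1 by 0.25 (edgeR adjusted p = 0.000229), or 0.14 with the length and GC correction, and Ifngr2 by 0.22 (edgeR adjusted p = 3.24e-05). Neither Nfkb1 nor Rela was called with doxycycline, at -0.01 and -0.06 (edgeR adjusted p = 0.85 and 0.0903).

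**Figure D5:**
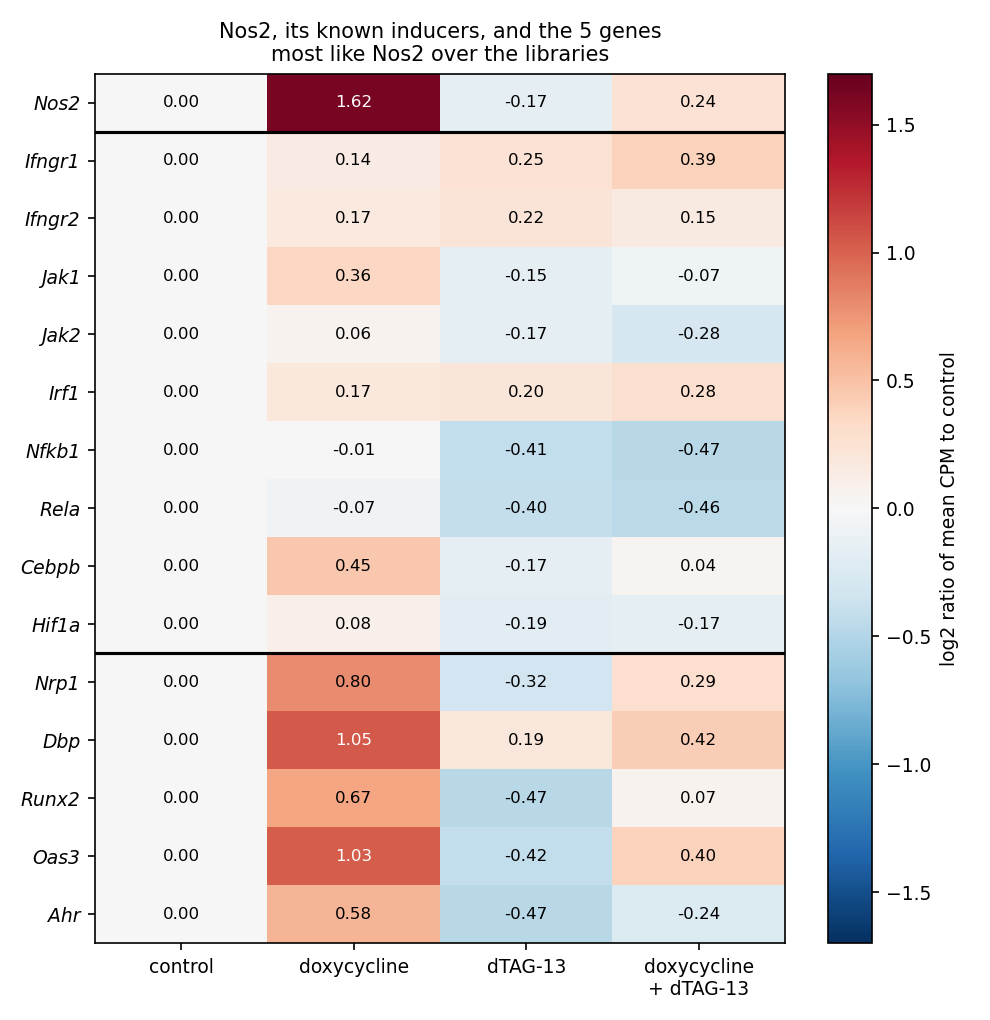
Log2 ratio of each group's mean CPM to the control mean for Nos2, its reported known inducers and the 5 genes most like Nos2, with the value printed in each cell. Nos2 has the highest ratio of all rows with doxycycline (1.62).

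The genes whose levels over the 12 libraries were most like those of Nos2 were sought among 237 genes with group means that spanned at least 1 log2 unit. By Pearson correlation of log2 CPM with Nos2 they were Nrp1 (0.931), Dbp (0.921), Runx2 (0.912), Oas3 (0.91) and Ahr (0.906). The 12 points are 4 cultures sampled 3 times each, and these values are a description. Nrp1 was at 22.4 CPM in controls, 39.1 in doxycycline, 17.9 in dTAG-13 and 27.3 in doxycycline plus dTAG-13. Oas3 went from 11.9 to 24.2 CPM with doxycycline and stood at 8.90 and 15.7 in the groups with dTAG-13. All 5 were highest in the doxycycline group, which largely follows from the search, since Nos2 itself was highest there.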

How the data were processed

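Raw read counts per Entrez gene, not normalized, were deposited by the authors as 1 table for 12 libraries. Alignment was with Subread, per the file headers, and per the submitters' processing notes bcl2fastq 2.17, featureCounts and mm10 were used. Not given in the sources used here are the annotation, the strand setting and the handling of multi-mapped reads, so reads of overlapping genes are uncertain. IDs were matched to RefSeq symbols of GRCm38.p6 (25275 of 27179 IDs, 17 more from GENCODE), and the 1887 without a symbol held 2.097% of the counts.

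The 4 groups were taken from the labels. In R 4.3.3, edgeR 4.0.16 was used with filterByExpr (12910 genes kept), TMM scaling (factors 0.965 to 1.04) and 1 mean per group over all 12 libraries. For each contrast edgeR's robust two-sided quasi-likelihood F test was run, with Benjamini-Hochberg adjustment over all genes and calls at adjusted p under 0.05. Values are CPM as mean ± SD. A count of 0 was taken to allow 3 reads. On simulated counts for dTAG-13 against control (12785 genes), the fit recovered 86.9% of 99 genes changed 1.5-fold and 93.9% of 99 changed 2-fold. It made 7 false calls. The simulation changed few genes, equally in both directions and without a length trend, whereas 62.1% of the real genes were called. It therefore tests neither the scaling nor the recovery of smaller changes. No 2 libraries of a group agreed within sampling noise (chi-square per degree of freedom 2.43 to 8.80).

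The members, lists and tests were chosen with earlier results of these data known. Besides the 8 members, the text names in each list and tested contrast the 2 called genes with the largest change in each direction, of at least 1 CPM on average, and the 5 genes most like Nos2; genes at the foot of a list (Nos1, Nos3, Arg1, Cps1, Otc, Agmat, Nags) were added after their values were seen. Alternatives were RLE scaling, total count scaling, DESeq2 1.42.0, no filter, a filter at 1 CPM in 3 libraries, a fit of the compared groups alone, a block for the replicate number, a correction for length and GC content, and leaving out each library. Some list genes enter the counts of their lists but are not reported here by name, nor plotted.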

Additional observations from a re-analysis of the deposited data

How the results depend on the processing

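The replicate numbers did not pair the libraries: the correlations of same-numbered deviations from the group means ran from -0.0208 to 0.0801. With the replicate block, Nos2 had -0.17, 1.62 and 0.41 in the 3 tested comparisons (dTAG-13 or doxycycline against control, then both compounds against dTAG-13). The called members stayed at 3, 2 and 2 of the 5 fitted, and 20, 18 and 5 of the 39 other fitted pathway genes were called. Without the block, 62.1%, 33.5% and 20.4% of all tested genes were called in these comparisons. The shares of all genes with the block are not given. Under settings that kept all libraries, 224 values were rated the same, 7 described values moved, 1 was reversed and 2 gained a call. For a tested fold change, the same meant an unchanged direction and call. For a described one, it meant a move smaller than the SD between libraries. A count of called genes could differ somewhat, as for the other pathway genes with dTAG-13 (13 higher and 6 lower, 21 and 3 under total count scaling). Total count scaling called Odc1 with doxycycline (0.07) and Slc7a1 in doxycycline plus dTAG-13 against dTAG-13 (-0.09). It also moved the described Odc1 difference between doxycycline plus dTAG-13 and doxycycline to 0.45 and the interactions of Asl, Slc7a1 and Odc1 to -0.07, 0.11 and 0.15. The length and GC correction reversed Gch1 with doxycycline (-0.007), and moved the described values of Asl (0.32) and Slc7a1 (-0.12) and the Slc7a1 interaction (0.24). The cause was not tested. Leaving out 1 library at a time, Nos2 ran from -0.27 to -0.067 with dTAG-13, 1.52 to 1.72 with doxycycline and 0.36 to 0.49 in doxycycline plus dTAG-13 against dTAG-13. Gch1 changed sign in all 3 (-0.01 to 0.62, -0.26 to 0.27 and -0.13 to 0.47), which its 113 reads limit. The number of other pathway genes called in doxycycline plus dTAG-13 against dTAG-13 ran from 3 to 6, with 3 without doxycycline plus dTAG-13 replicate 1. Fits of only the groups compared gave no interaction and, with dTAG-13 or doxycycline against control, no Gch1 value, since it did not pass their filter.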
